A study of Mus musculus with 6 samples.

Results

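The genes described here encode the sterol sensor that governs SREBP transcription factors: Insig1, Insig2, Scap, Srebf1, Srebf2, Mbtps1 and Mbtps2. They were chosen by gene symbol, as every probe set whose platform annotation names exactly 1 of these 7 genes, which gave 13 of the 45037 non-control probe sets on the array. Of the 13, 11 passed a filter on low signal (mean log2 signal of at least 8.08 over all arrays) and were tested. RNA came from alveolar type II cells, the surfactant-making epithelial cells of the lung, isolated from mice 2 months old. In the Insig1-deleted group (Insig1 ∆/∆ /Insig2 -/-, 3 RNA pools) the mice carried SpC-rtTA, an activator under the surfactant protein C promoter, and Otet-CRE, the Cre recombinase it switches on, besides Insig1 flox/flox and Insig2-/-. In the control group (Insig1 flox/flox /Insig2 -/-, 3 RNA pools) either SpC-rtTA or Otet-CRE was missing. The labels of both groups give doxycycline, the inducer of that activator, over the embryonic days E6.5 to E12.5. Both groups therefore carried the germline Insig2 deletion, and what differed was the Cre system and with it Insig1. The Cre system and the loss of Insig1 cannot be told apart in this design. The files do not say which cell types of the adult lung carried the deletion.

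SREBPs are made as precursors in the membrane of the endoplasmic reticulum, where they are bound to the escort protein SCAP. When sterols are plentiful, an INSIG protein holds the complex there. When sterols are scarce, SCAP carries the precursor to the Golgi, where site-1 protease (Mbtps1) and then site-2 protease (Mbtps2) cut it and free the transcription factor. SREBP-2, from Srebf2, is known mainly for genes of cholesterol synthesis and uptake, and SREBP-1, from Srebf1, for genes of fatty acid synthesis. Insig1 and both Srebf genes are themselves known SREBP targets, so transcript levels of the sensor are part of the loop. In type II cells the pathway supplies lipid for surfactant. The comparison asks how transcripts of the sensor differ when Insig1 is lost on a background without Insig2.

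Start windows of the genes at the centre of this loop are shown because all 3 are known SREBP targets and their transcripts are compared below. RefSeq (GRCm38.p6) gave 12 windows for the 7 genes, each from 250 bases before to 50 bases after a transcription start. Capitals mark letters of the sterol element core TCACCCCA, of CACGTG, which is an E-box, of CCAAT, the box bound by NF-Y, and of GGGCGG, a GC box bound by Sp1, each on either strand. Insig1 lies at chr5:28071412-28078662 and its window at chr5:28071162-28071461, plus strand. Srebf2 lies at chr15:82147269-82205379 and its window at chr15:82147019-82147318, plus strand. Srebf1 lies at chr11:60199084-60224186 with 3 windows, of which the one at chr11:60210422-60210721, minus strand, is printed.
Insig1 start window: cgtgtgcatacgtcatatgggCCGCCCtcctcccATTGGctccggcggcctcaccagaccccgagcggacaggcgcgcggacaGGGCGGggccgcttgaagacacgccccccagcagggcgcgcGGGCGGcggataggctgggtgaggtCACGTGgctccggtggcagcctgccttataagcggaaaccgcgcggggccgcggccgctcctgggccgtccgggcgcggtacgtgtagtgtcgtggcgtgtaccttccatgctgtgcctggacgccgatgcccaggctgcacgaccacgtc
Srebf2 start window: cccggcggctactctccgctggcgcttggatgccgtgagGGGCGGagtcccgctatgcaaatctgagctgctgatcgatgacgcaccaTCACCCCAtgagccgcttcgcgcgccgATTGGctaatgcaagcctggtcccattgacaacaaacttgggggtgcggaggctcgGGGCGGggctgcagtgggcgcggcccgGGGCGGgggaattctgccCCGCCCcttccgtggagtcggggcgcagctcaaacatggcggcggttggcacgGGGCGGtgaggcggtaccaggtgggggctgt
Srebf1 start window: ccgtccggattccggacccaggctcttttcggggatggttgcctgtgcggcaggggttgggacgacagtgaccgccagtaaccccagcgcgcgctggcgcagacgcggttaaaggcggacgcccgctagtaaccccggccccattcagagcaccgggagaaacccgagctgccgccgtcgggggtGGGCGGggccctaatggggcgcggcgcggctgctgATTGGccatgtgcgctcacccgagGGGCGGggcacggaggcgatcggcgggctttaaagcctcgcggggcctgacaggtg

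The Srebf2 window holds TCACCCCA once, at position -162 from the start, a run of letters found in 1.56% of 32851 mouse start windows. It was the only window of the 12 with that run, and none of the 12 held the longer form TCACNCCAC, which 1.24% of all windows held and which overlaps the core wherever its free base is C. The Insig1 window holds CACGTG at position -101, and both Scap windows hold it at the same genomic place. That run occurs in 7.15% of all windows. CCAAT, on the minus strand, stands at position -216 of Insig1, -135 of Srebf2 and -30 of the Srebf1 start printed here, against 37.4% of all windows with at least 1. GGGCGG occurs 3 times for Insig1, 5 times for Srebf2 and 2 times for that Srebf1 start, and 35.7% of all windows hold it. Of the Srebf1 windows not printed, 1 held CCAAT once and no GGGCGG, and the other held GGGCGG 3 times and no CCAAT. An Insig2 window, also not printed, held CCAAT 3 times. A match is a run of letters in this window and no evidence of binding, and the probe sets do not say which Srebf1 start was used.

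Each array was scaled by the authors to a common trimmed mean, and array medians ran from 426 to 479. Log2 signals of pools of 1 genotype correlated at 0.945 to 0.978, and those of opposite genotypes at 0.948 to 0.963. The leading principal component (31.0% of variance) placed the deleted pools between -24.5 and -13.2, control pools 1 and 2 at 7.64 and -7.90, and control pool 3 far off at 61.5. It also had the lowest array weight, 0.478. Of 27022 probe sets tested with limma, 87 passed an adjusted p of 0.05, 85 of them higher in deleted pools; the number was 3 without deleted pool 2, 17 without deleted pool 3, 29 without deleted pool 1, 57 without control pool 1, 198 without control pool 3 and 461 without control pool 2. Nothing in the labels says how many mice made a pool, so p-values measure the spread between pools.

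Insig1, which encodes the sterol-induced retention protein that was targeted, was the only one of the 7 genes whose brightest probe set approached a difference of 2-fold. Its single probe set (1454671_at) had signals of 1252.5, 1442 and 1750.4 in deleted pools, against 2300.1, 3325.2 and 2959.5 in control pools. The highest deleted pool was thus lower than the lowest control pool. The means were 1482 ± 251 in deleted pools and 2862 ± 519.5 in control pools (SD, n = 3 each). The log2 fold change, deleted minus control, was -0.95 ± 0.19 (SE, 95% interval -1.36 to -0.53), so deleted pools held 0.519 of the control signal. Adjusted over all probe sets the p was 0.0956 (limma), which misses the threshold, although only 0.588% of tested probe sets had a p as small or smaller. Only 0.592% of tested probe sets had a lower log2 fold change. The files do not place the probe set inside or outside the floxed part of the gene, so its signal checks the genotype only in part. In RNA of a mixed isolate, fewer cells of a type and less RNA per cell cannot be told apart.

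Insig2, the second retention protein, was labelled as deleted in all 6 pools, yet each of its 3 probe sets passed the filter. The brightest (1417981_at) gave 2106.6, 1904.5 and 1930.5 in deleted pools, against 2626.5, 2277 and 1843.7 in control pools. Control pool 3 was the lowest of all 6 arrays, so the groups overlapped. The log2 fold change was -0.17 ± 0.16 (95% interval -0.53 to 0.19, adjusted p = 0.787, limma). It was -0.05 without control pool 1, -0.31 without control pool 3, -0.09 with arrays set to a common median and -0.26 with array weights. Probe set 1417980_a_at gave 1180.8, 1181.1 and 1142.8 in deleted pools, against 1416.5, 1499.5 and 1216.3 in control pools. Here the groups did not overlap, and the deleted pools were close to each other (1168 ± 22.0 against 1377 ± 146 in control pools). Its log2 fold change was -0.23 ± 0.15 (adjusted p = 0.665, limma). Probe set 1417982_at gave 745.3, 701.6 and 595.2 in deleted pools and 941.9, 828.3 and 684.8 in control pools, with a log2 fold change of -0.26 ± 0.20 (adjusted p = 0.723, limma). That value was -0.15 without control pool 1 and -0.17 without deleted pool 3. All 3 probe sets thus read lower in deleted pools, at 0.889, 0.851 and 0.835 of the control signal, with none past the threshold. Signal in mice labelled Insig2-/- shows that these probes hybridised to something, not that a working transcript was present; where they lie relative to the deletion was not analysed here.

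**Figure D1:**
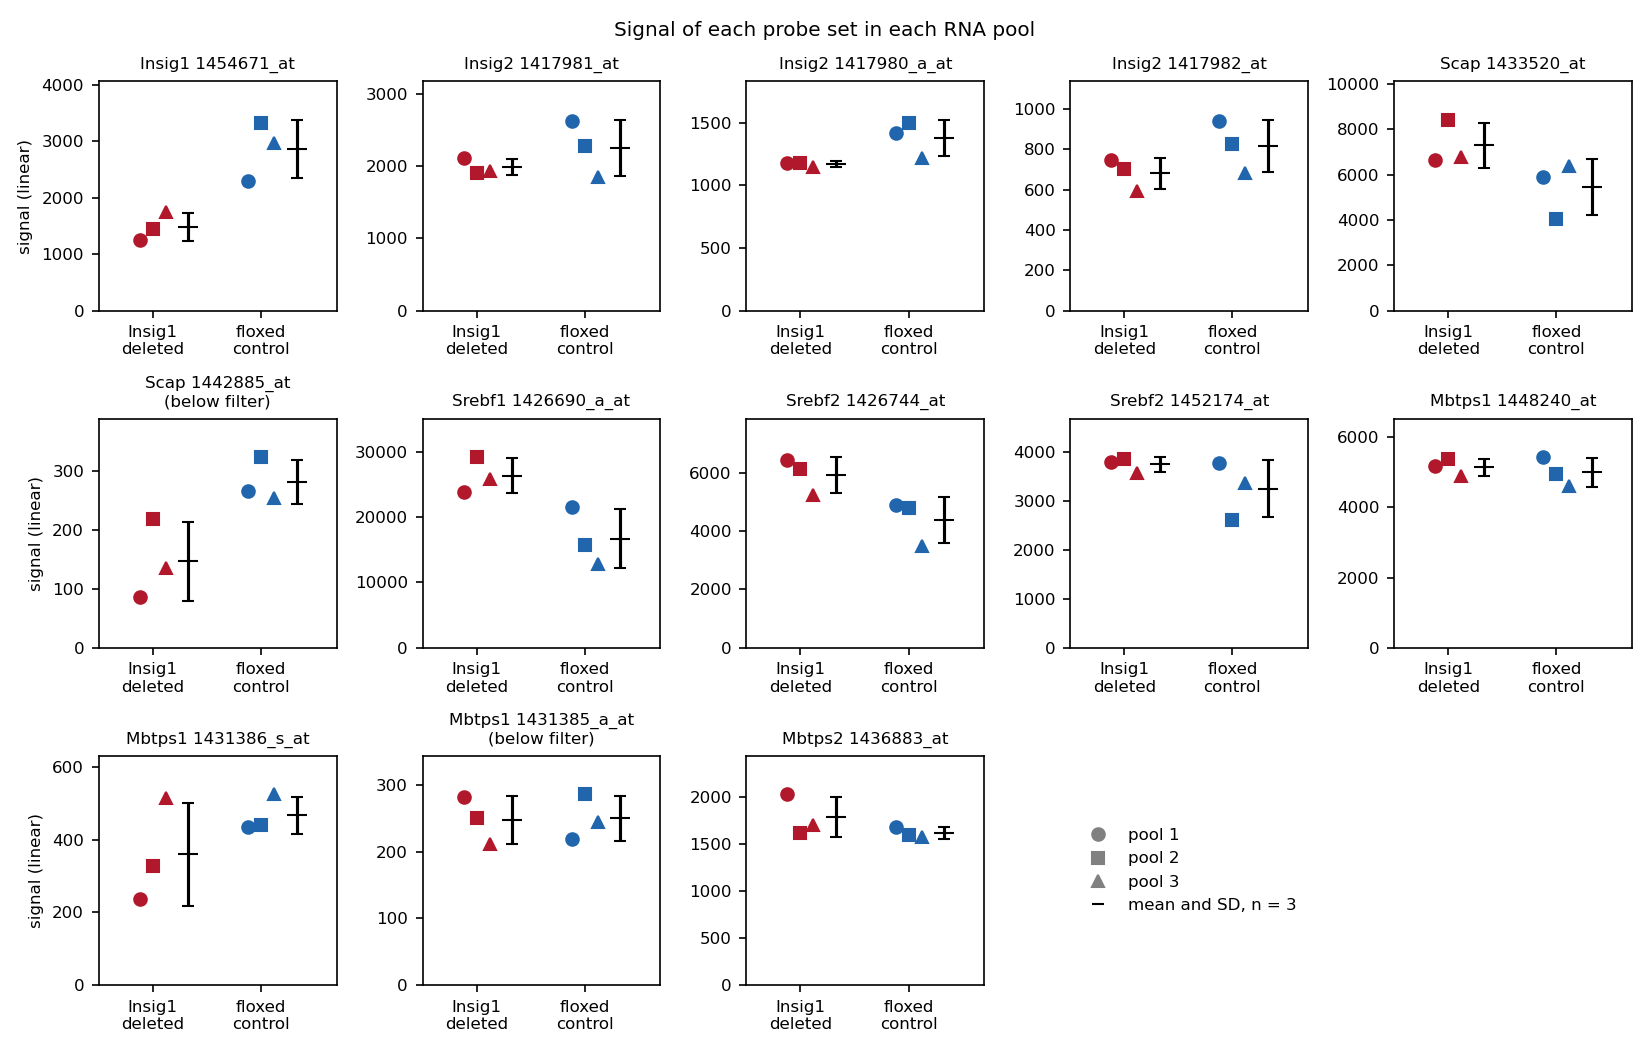
Signal (linear scale, each axis from 0) of the 13 probe sets in each RNA pool, Insig1-deleted pools in red at left and floxed control pools in blue at right, with the mean and SD of 3 pools beside them. The 3 deleted pools of Insig1 sit between 1252.5 and 1750.4, all below the control pools, while Srebf1 sits between 23907.8 and 29209 in deleted pools, all above the control pools.

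Srebf1, the gene of SREBP-1, was the member with the largest increase. Its 1 probe set (1426690_a_at) gave 23907.8, 29209 and 25789.4 in deleted pools, against 21579.7, 15657.6 and 12752.3 in control pools. All deleted pools lay above all control pools, and the control pools were spread widely (26302 ± 2688 in deleted pools, 16663 ± 4499 in control pools). The log2 fold change was 0.69 ± 0.18 (95% interval 0.28 to 1.10), a 1.61-fold higher signal. The adjusted p of 0.254 (limma) misses the threshold, and 97.7% of tested probe sets had a lower log2 fold change. Control pool 1 was nearest to the deleted pools, and without it the value was 0.89 (adjusted p = 0.0861, limma). It was 0.51 without control pool 3 (adjusted p = 0.25, limma) and 0.61 without deleted pool 2 (adjusted p = 0.741, limma). The probe set cannot separate the 2 SREBP-1 isoforms on the evidence of these files, so 1a and 1c are reported together.

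Srebf2, the gene of SREBP-2, had 2 probe sets that leaned the same way. The brighter (1426744_at) gave 6416.6, 6111.5 and 5223.2 in deleted pools, against 4892.7, 4793.5 and 3480.3 in control pools. Its groups did not overlap, and pool 3 was lowest in each. The log2 fold change was 0.44 ± 0.16 (95% interval 0.08 to 0.80), or 1.36-fold, with an adjusted p of 0.405 (limma). Without control pool 3 it was 0.28. The dimmer probe set (1452174_at) gave 3800.4, 3865.6 and 3573.2 in deleted pools, against 3774.1, 2613.4 and 3375.5 in control pools. Control pool 1 stood among the deleted pools, so these groups overlapped. Its log2 fold change was 0.22 ± 0.15 (adjusted p = 0.683, limma), and without control pool 2 it was 0.07.

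Scap, the escort and sterol sensor, had 1 bright probe set and 1 below the filter, and they pointed in opposite directions. The bright one (1433520_at) gave 6657, 8432.6 and 6790.5 in deleted pools, against 5900.9, 4036.1 and 6385.7 in control pools. The groups did not overlap, but deleted pool 1 exceeded control pool 3 by little. The log2 fold change was 0.44 ± 0.18 (95% interval 0.03 to 0.85), or 1.36-fold, with an adjusted p of 0.456 (limma). It depended on control pool 2, the lowest, without which it was 0.24. The dim probe set (1442885_at) gave 86.3, 218.9 and 134.6 in deleted pools, against 265.4, 323.5 and 253.6 in control pools. All deleted pools were lower there, by a log2 difference of -1.03 ± 0.46 with an adjusted p of 0.614 in the limma fit without a filter.

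The proteases that free SREBP showed small differences on their brightest probe sets. Mbtps1 encodes site-1 protease, which makes the first cut. Its brightest probe set (1448240_at) gave 5186.5, 5369.4 and 4881.4 in deleted pools, against 5439.3, 4940.6 and 4621.1 in control pools. The groups overlapped throughout, with a log2 fold change of 0.04 ± 0.12 and a 95% interval of -0.22 to 0.31 (adjusted p = 0.935, limma). That interval spans 0.858-fold to 1.24-fold, the narrowest of the 11. A second probe set (1431386_s_at) gave 237.4, 327.9 and 514.8 in deleted pools, against 435.5, 440.9 and 526 in control pools. Its value of -0.44 ± 0.32 (adjusted p = 0.691, limma) came from deleted pools with an SD of 141, against 50.8 in control pools. It was -0.18 without deleted pool 1 and -0.74 without deleted pool 3. The third (1431385_a_at) lay below the filter at 248 ± 35.6 in deleted pools and 250.2 ± 33.6 in control pools.

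Mbtps2 encodes site-2 protease, which makes the second cut, inside the membrane. Its probe set (1436883_at) gave 2027, 1619.4 and 1704.2 in deleted pools, against 1682.7, 1595.1 and 1567.9 in control pools. Deleted pool 1 was the highest, and the other deleted pools lay within or just above the control range. The log2 fold change was 0.14 ± 0.15 (95% interval -0.19 to 0.47, adjusted p = 0.812, limma), and without deleted pool 1 it was 0.04. A further probe set that names Mbtps2 together with another gene was left out by the rule, and had a log2 fold change of 0.04 ± 0.19.

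**Figure D2:**
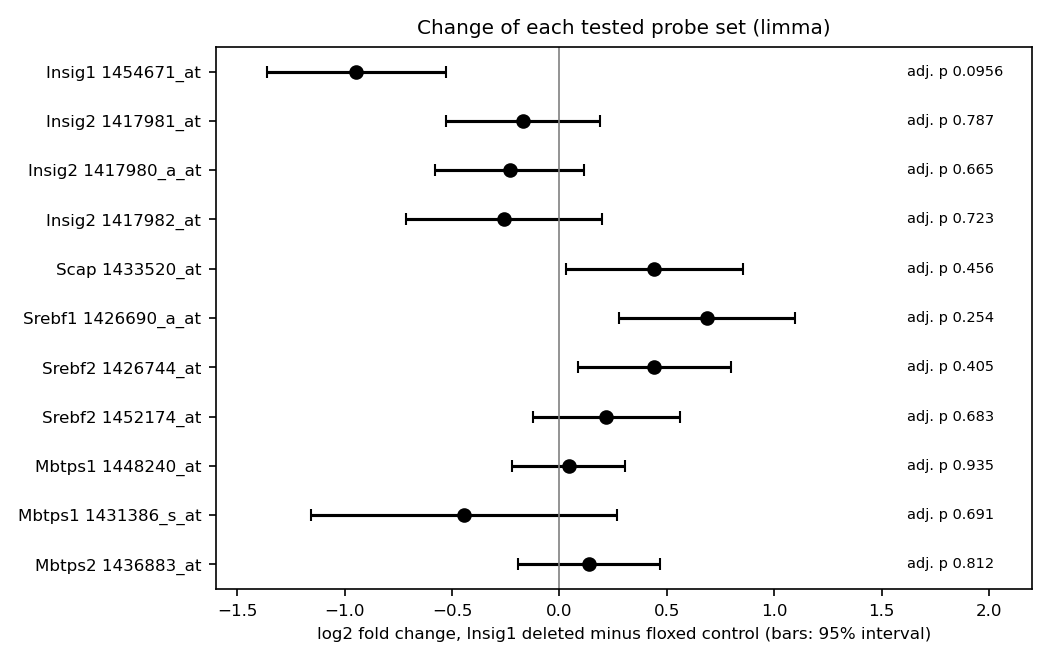
Log2 fold change (deleted minus control) of the 11 tested probe sets with its 95% interval and the adjusted p over all probe sets tested (limma). The intervals of Insig1 (-1.36 to -0.53), Srebf1 (0.28 to 1.10), Srebf2 1426744_at (0.08 to 0.80) and Scap 1433520_at (0.03 to 0.85) leave out 0, the other 7 include it, and no adjusted p is below 0.05.

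None of the 11 tested probe sets passed the adjusted threshold by limma, where 0.322% of all tested probe sets did, which at 11 probe sets gives no result about these genes. At an unadjusted p under 0.05 there were 4 (3 higher, 1 lower), namely Insig1, Srebf1 and the brighter probe sets of Srebf2 and Scap. Over all probe sets 2752 of 27022 met that (1307 higher, 1445 lower). Groups did not overlap for 5 of the 11 probe sets, against 15.6% of all tested probe sets, and deleted pools were entirely higher for 3, against 7.69%. The median over all tested probe sets was -0.02 on the log2 scale.

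**Figure D3:**
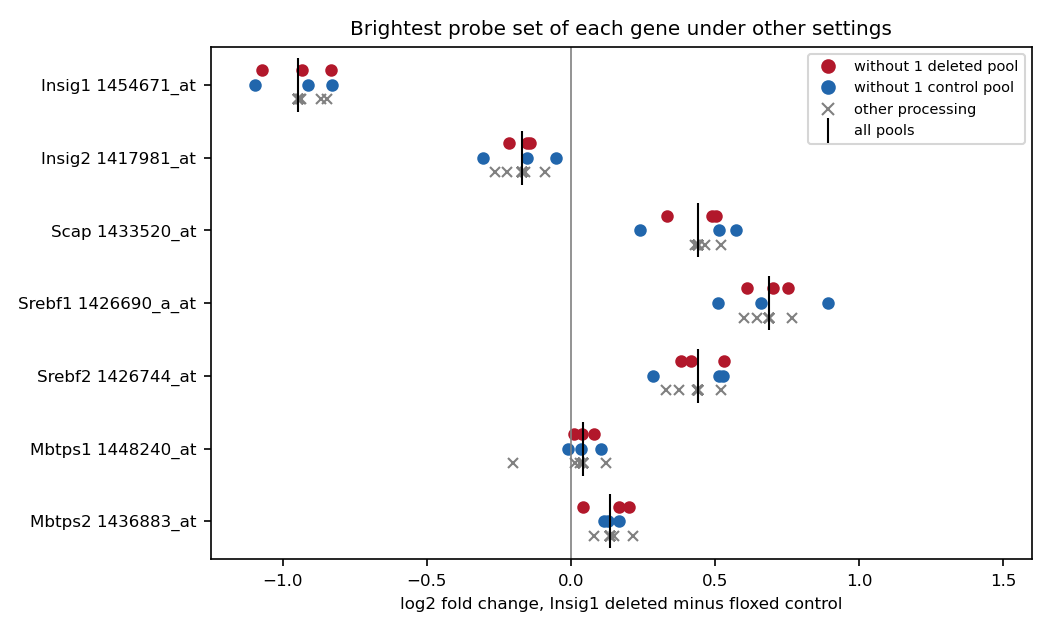
Log2 fold change (deleted minus control) of the brightest probe set of each gene with all pools (black line), without 1 deleted pool (red), without 1 control pool (blue) and under other processing (grey). Insig1 stays between -1.10 and -0.83 and Srebf1 between 0.51 and 0.89 over these settings, and only Mbtps1 crosses 0.

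Ratios within an array show whether 2 of the genes moved unequally on the same arrays. Only the difference between groups can be read, since each probe set has its own scale. The log2 ratio of Insig1 to Insig2 was -0.75, -0.40 and -0.14 in deleted pools, against -0.19, 0.55 and 0.68 in control pools. Control pool 1 stood inside the deleted range. The difference was -0.78 with an exact permutation p of 0.2 (two-sided). The log2 ratio of Scap to Insig1 was 2.41, 2.55 and 1.96 in deleted pools, against 1.36, 0.28 and 1.11 in control pools. On these brightest probe sets, deleted pools thus held more Scap signal per unit of Insig1 signal than any control pool. The difference between group means was 1.39 (exact permutation p = 0.1, the smallest that 3 against 3 allows). Insig1 was already lower in every deleted pool than in any control pool, and this Scap probe set was higher. The separation followed from those changes, so this ratio is no separate test of them. Insig1 itself stood at -0.95, and the Scap probe set below the filter leaned the other way, at -1.03.

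Srebf1 and Srebf2 were set against each other in the same way. The log2 ratio of Srebf1 to Srebf2 was 1.90, 2.26 and 2.30 in deleted pools, against 2.14, 1.71 and 1.87 in control pools. The groups overlapped, and the difference of 0.25 had an exact permutation p of 0.2. It was 0.15 without control pool 2 and 0.37 without deleted pool 1. With the dimmer Srebf2 probe set in its place the difference was 0.47 (exact permutation p = 0.1). Insig1 was also set against the mean of 18 SREBP sterol targets. That log2 ratio was -2.88, -2.88 and -2.32 in deleted pools, against -0.87, -0.33 and -0.01 in control pools. The difference of -2.29 was the largest of the 4, with groups far apart (exact permutation p = 0.1). Insig1 was already lower in every deleted pool than in any control pool, and 17 of the 18 targets were entirely higher. The separation followed from those changes, so this ratio is no separate test of them. Adjusted over the 4 ratios each p was 0.2.

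**Figure D4:**
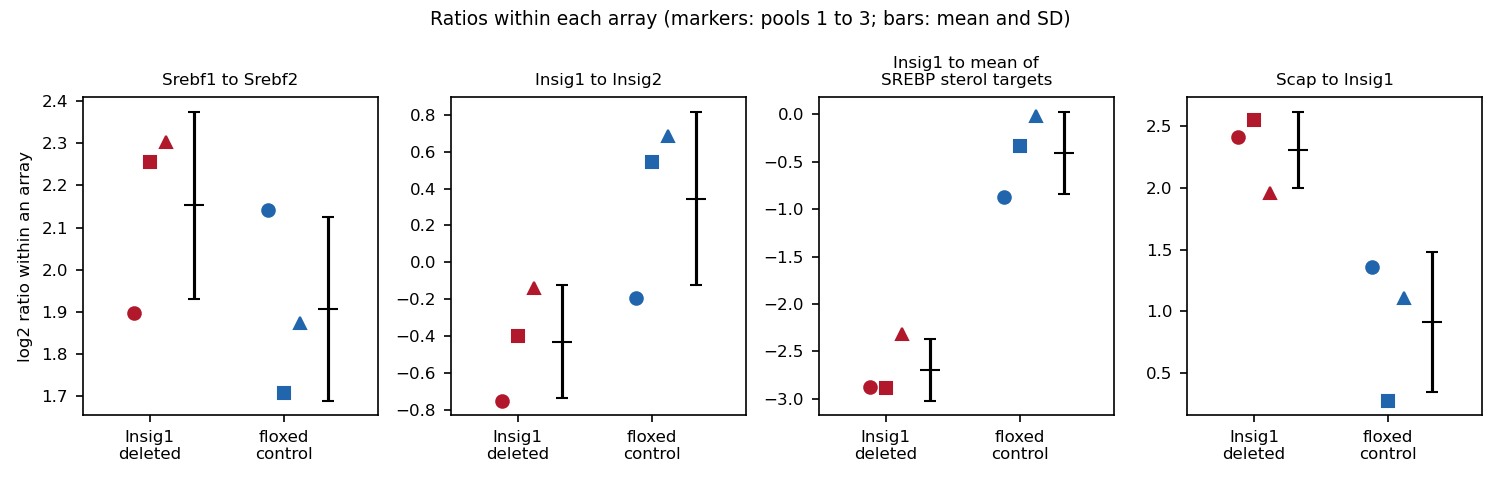
Log2 ratio within each array for 4 pairs, Insig1-deleted pools in red at left and floxed control pools in blue at right, with mean and SD of 3 pools. For Insig1 against the mean of the SREBP sterol targets the deleted pools lie between -2.88 and -2.32 and the control pools between -0.87 and -0.01.

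Known SREBP targets were higher in deleted pools. Each gene below is taken by its brightest probe set in the same fit. There 0.448% of 12952 genes were called higher and 0.0154% lower, and the median gene stood at 0.00 on the log2 scale. Over all tested probe sets, deleted pools were entirely higher for 7.69%, and 2752 of 27022 met an unadjusted p under 0.05 (limma). Of 22 sterol targets listed, 18 were tested and 12 of these rose, none fell, and 17 had groups that did not overlap. Their median log2 fold change was 1.32. The smallest p-values belonged to Lss, lanosterol synthase (2.22 ± 0.14), Sqle, squalene epoxidase (1.08 ± 0.10), Fdps, farnesyl diphosphate synthase (1.71 ± 0.16), and Msmo1, which removes methyl groups from sterols (1.30 ± 0.13). Ebp, a sterol isomerase, was the 1 tested target below 0 (-0.11 ± 0.14). Insig1, a known target of the same factors, thus stood at -0.95 beside a target median of 1.32.

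The count of sterol targets called changed when single pools were left out. It was 1 without deleted pool 2, 4 without deleted pool 3, 5 without deleted pool 1, 10 without control pool 1, 14 without control pool 3 and 16 without control pool 2, while the list's median stayed between 1.15 and 1.46. Of 16 fatty acid and NADPH targets, 2 rose and 13 had groups that did not overlap, all 13 higher in deleted pools, with a median of 0.64. The 2 were Aacs, which activates acetoacetate (1.53 ± 0.16), and Fads2, a desaturase (1.30 ± 0.20). Pnpla3 (-0.37 ± 0.22) was the 1 gene of that list below 0. The number called was 0 without deleted pool 2, 1 without deleted pool 1 or 3, 2 without control pool 3, and 3 without control pool 1 or 2.

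**Figure D5:**
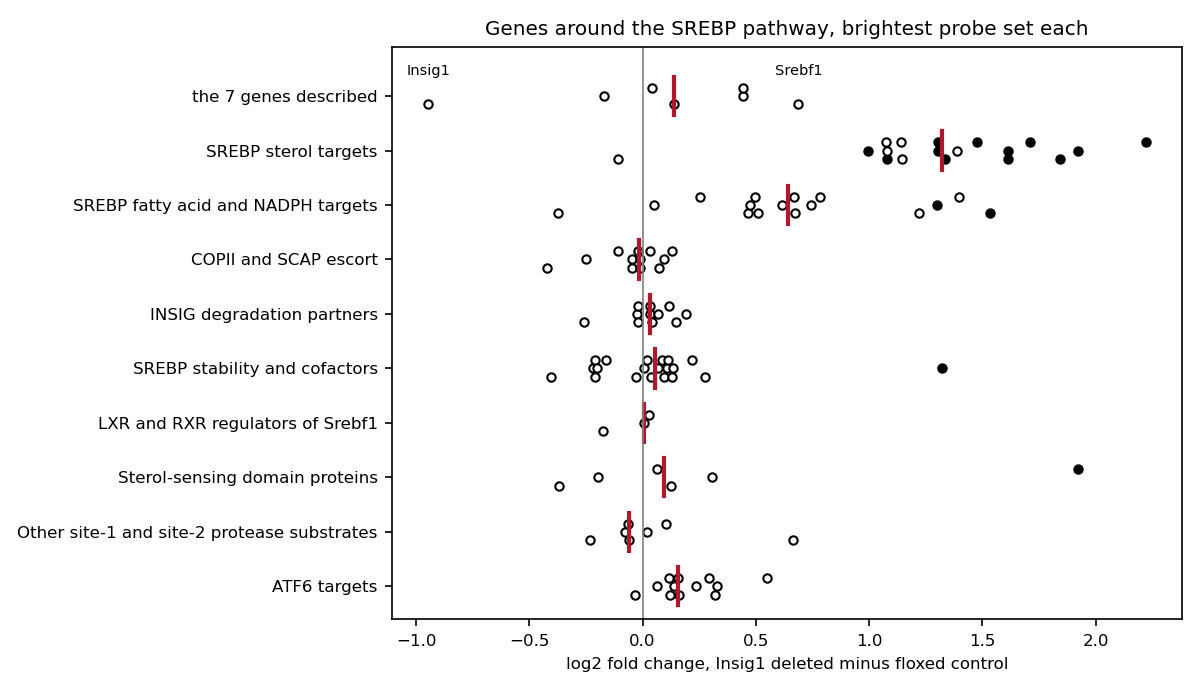
Log2 fold change (deleted minus control) of each tested gene by its brightest probe set, for the 7 genes described and 9 lists around the pathway, with filled points for an adjusted p under 0.05 (limma) and red lines for the median. Sterol targets centre on 1.32 and fatty acid targets on 0.64, while Insig1 lies at -0.95 and the COPII and INSIG partner lists centre on -0.02 and 0.03.

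Genes of the machinery next to the sensor showed few differences. COPII proteins form the coat that takes SCAP out of the endoplasmic reticulum. None of 12 COPII and escort genes passed by limma, none did at an unadjusted p under 0.05, and their median was -0.02. The smallest p-values were those of Paqr4 (-0.42 ± 0.22) and Sec24b, a cargo-binding coat subunit (-0.25 ± 0.14). Among 11 tested genes of the machinery that ubiquitinates and degrades INSIG and its partners, none passed by limma and none did at an unadjusted p under 0.05 (median 0.03). Rnf145, a sterol-responsive ubiquitin ligase, stood at 0.19 ± 0.12 and Erlin1, a scaffold for such ligases, at -0.26 ± 0.13.

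Among 20 genes for SREBP stability and cofactors, 1 rose, Lpin1, a phosphatidic acid phosphatase that also acts on nuclear SREBP and is itself an SREBP target (1.32 ± 0.13, adjusted p = 0.00614, limma). The list's median was 0.05, and Lpin1 was not called without deleted pool 2. LXR, the oxysterol receptor, drives Srebf1 together with RXR. Nr1h3, the gene of LXR alpha, averaged 969 ± 117 over deleted pools, against 963 ± 83.6 over control pools, a log2 fold change of 0.00 ± 0.18. Rxra stood at 0.03 ± 0.18 and Rxrb at -0.17 ± 0.14, and none of these 3 tested genes passed by limma or at an unadjusted p under 0.05. Of 6 tested genes with a sterol-sensing domain like that of SCAP, 1 rose, Dhcr7, the last enzyme of cholesterol synthesis, at 1.92 ± 0.22. It was counted among the sterol targets too, and was not called without deleted pool 2 or 3.

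Site-1 and site-2 protease cut other proteins besides SREBP. None of 7 tested genes for such substrates passed by limma, and 1 did at an unadjusted p under 0.05. This was Gnptab, which tags lysosomal enzymes and is cut by site-1 protease, with 5985 ± 1160 in deleted pools and 3736 ± 278 in control pools (0.67 ± 0.15, adjusted p = 0.175, limma). Atf6, the stress sensor cut by both, stood at -0.08 ± 0.14 and Creb3 at -0.23 ± 0.18. Of 12 ATF6 targets, 11 lay above 0 and 3 had groups that did not overlap, all higher, against 7.69% of all tested probe sets. None passed by limma and 2 did at an unadjusted p under 0.05, Hyou1, a chaperone (0.55 ± 0.15), and Dnajb11, a co-chaperone (0.29 ± 0.13). The list's median was 0.16, and over all tested probe sets 2752 of 27022 met that unadjusted p.

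The genes whose log2 signals followed each member most closely over the 6 arrays were found among 12353 named genes, by Pearson correlation and as a description. For Insig1 they were Khdrbs3 (r = 0.998), Elapor1 (0.994) and Upk3a (0.994). For Srebf1 they were Ccdc50 (0.999), Srrt (0.997) and Mms19 (0.996), and for Srebf2 Xiap (0.997), Nucks1 (0.996) and Manba (0.996). Scap was followed by Psmd1 (0.994), Hars2 (0.987) and Pus10 (0.985), and Insig2 by Dst (0.990), Rbms1 (0.988) and Kifbp (0.987). Mbtps1 had Osbpl2 (0.979), Pcnx3 (0.978) and Atm (0.974), and Mbtps2 had Ttc37 (0.991), Rapgef6 (0.985) and Braf (0.982). None of these genes was itself called by limma (adjusted p 0.305 to 0.972). The correlations share the 6 arrays and the 2 genotypes and are given without a test. Each was picked for being among the highest of 12353 over only 6 arrays, so its size is no evidence of shared regulation.

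Macrophage markers differed between the groups, and so did 2 airway cell markers. Beside the counts here, groups did not overlap for 15.6% of all tested probe sets, and 2752 of 27022 met an unadjusted p under 0.05 (limma). Type II cell markers were present on every array, with summed signals of 846749 to 987257 in deleted pools and 838571 to 1008320 in control pools, and none of 13 tested was called by limma (2 at an unadjusted p under 0.05). Of 14 tested macrophage markers 5 rose, namely Marco, Gpnmb, Mpeg1, Chil3 and Cd68. Of the 14, 13 lay above 0, 10 had groups that did not overlap and the median was 0.94. The number called was 0 without deleted pool 2, 1 without deleted pool 1 or 3, 3 without control pool 1 and 7 without control pool 2 or 3. Their summed signal was 229773 to 242672 in deleted pools, against 148656 to 198243 in control pools. Much of both sums was Lyz2, the only 1 of the 14 below 0 (114048 ± 12388 in deleted pools, 122380 ± 19766 in control pools, log2 fold change -0.09 ± 0.15). Of 12 airway cell markers 2 fell, Sox2 and Ccdc153, and they were the only 2 whose groups did not overlap. None of the 12 lay above 0. The list's summed signals overlapped, at 398062 to 509612 in deleted pools and 472706 to 637478 in control pools. Its median was -0.43, and it was -0.24 without deleted pool 1 and -0.66 without control pool 2. No airway cell marker was called without 1 of the deleted pools, 1 was without control pool 1 and 3 were without control pool 2. Lymphocyte markers had a median of 0.48 with none of 10 called by limma and 2 at an unadjusted p under 0.05, and 4 were called without control pool 3. Their median was 0.98 without control pool 3, 0.26 without control pool 1, 0.27 without deleted pool 1 and 0.31 without control pool 2. None of the type I cell (9 tested, median 0.03), endothelial (9, median 0.02) or mesenchymal markers (10, median -0.09) was called by limma, and 0, 1 and 1 of them met an unadjusted p under 0.05. Summed endothelial signal was 41993 to 43966 in deleted pools, against 38437 to 40512 in control pools, and the summed signals of the other 2 lists overlapped. Esam was the only endothelial marker whose groups did not overlap, with 16680 ± 1317 in deleted pools and 11839 ± 2138 in control pools. All 7 genes described are expressed in many cell types, and the part of these other cells in their values was not tested.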

How the data were processed

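Signal intensities per probe set, linear and scaled by the authors so that every array has a trimmed mean of about 1493, were deposited. The submitters' processing notes name MAS5 without a version. The table held 45101 probe sets, 64 of them controls. Gene names came from the platform annotation. Intensities under 1 would have been set to 1, log2 was taken, and probe sets below the 40th percentile of mean log2 signal (signal 271) were left out, which kept 27022. Precision is limited by having 3 arrays a group. The test of genotype was two-sided and used limma 3.58.1 (lmFit and eBayes with trend, R 4.3.3). Its p-values were adjusted by Benjamini-Hochberg over the probe sets kept. Within-array ratios went through exact permutation tests over the 20 assignments of arrays. Lists took each gene by its brightest probe set, with counts and medians and no set test. Genes named from a pathway list were the 4 with the smallest p past the threshold, or 2 if none passed. Nr1h3, Ebp, Pnpla3 and Atf6 were named after their values were seen, and so were the single cell type markers named. List members with no probe set naming them alone were not analysed here. The 7 genes, lists and motifs were chosen with earlier results of these data known. The fit was tested on simulated data. Figures were drawn with matplotlib 3.10.9. Alternatives were a pseudocount of 16, scaling by quantiles or to 1 median, fits without trend or with array weights, no filter or a percentile of 60 in it, a block for pool number, gene summaries and each pool left out in turn.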

Additional observations from a re-analysis of the deposited data

How the results depend on the processing

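Over 16 alternatives Insig1 stayed lower (log2 fold change -1.10 to -0.83, adjusted p 0.047 to 0.408), and Srebf1 (0.51 to 0.89), Srebf2 on its brighter probe set (0.28 to 0.53) and Scap (0.24 to 0.57) stayed higher without passing. Mbtps1 on its brightest probe set turned to -0.20 with the mean over its probe sets and to -0.012 without control pool 3, and lay between -0.012 and 0.11 with each pool left out. With the pool number as a replicate block, Insig1 passed (-0.95, adjusted p = 0.047, limma), as 1 called probe set of the 7 genes, and 145 probe sets passed in all. Whether the pool numbers pair the genotypes is not known: deviations of same-numbered pools correlated at 0.107, 0.054 and 0.133, and all 6 pools correlated best with their own number, which is a hint from the data and not from the labels. The 87 calls over all probe sets became 131 with a common median, 4 without an intensity trend and 170 with array weights, and ran from 3 to 461 with each pool left out. The 12 sterol targets called became 1 without a trend, and 1 to 16 with each pool left out. The 2 fatty acid targets called became 1 with quantile normalization or no filter, 0 without a trend, and 0 to 3 with each pool left out. The difference in the ratio of Srebf1 to Srebf2 was 0.47 with the dimmer Srebf2 probe set. Leaving out pools for the ratios was chosen after seeing the data, and changed no direction, with the ratio of Srebf1 to Srebf2 differing by 0.15 to 0.37. The cause of these shifts was not tested.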
